A study of Ctenopharyngodon idella with 15 samples.

Results

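The 3 neighbouring antigen processing genes antigen peptide transporter 2 (TAP2), proteasome subunit beta type-9 (PSMB9) and proteasome 20S subunit beta 12 (PSMB12), were followed in the gills of grass carp (Ctenopharyngodon idella) kept at different salinities. They are 3 of the 40116 genes listed for each fish, and all 3 passed the filter on low expression that 24647 genes passed. The names are those that the study pairs with the locus identifiers. The genes were chosen by measured values of these same fish. They came from a set that the study picked as up-regulated against control fish in 3‰-treated symptomatic, 6‰-treated asymptomatic and 6‰-treated symptomatic fish. They were singled out because they lie side by side and are high or low together over the 15 fish. The values of every group, treated groups included, were thus part of the choice, and the levels and differences of the 3 genes are given as a description, with no test.

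Gill RNA was sequenced with 1 library per fish, with 3 fish in each of 5 groups. The groups were untreated healthy control fish (con, salinity 0), and fish kept for 30 days at 3‰ or 6‰ of a commercial sea salt that were either symptomatic, with an injured body, or asymptomatic. All fish were 3 months old by the labels, and none came from the bacterial challenge of the study. The labels write the salinities as 3% and 6%, where the design text and the study write 3‰ and 6‰, which are used here. The health of the fish was monitored daily during the treatment, and gills of symptomatic and asymptomatic fish were taken after it. The symptomatic and asymptomatic groups were thus sorted by outcome and not assigned.

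MHC class I molecules show peptides from inside the cell to cytotoxic T cells. The proteasome cuts proteins into such peptides, and the immunoproteasome is a form of it in which catalytic subunits are replaced by interferon-inducible ones such as PSMB9. TAP2 is one of the subunits of the transporter that carries the peptides into the endoplasmic reticulum, where they are loaded onto MHC class I. In zebrafish the genes for TAP2 and for several proteasome beta subunits, psmb12 among them, lie in the core MHC class I region, and haplotypes of that region that differ in gene content are known in that species.

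The 3 loci lie on scaffold CI01000319 of the genome used by the authors, whose build none of the sources used here states. The TAP2 locus (CI01000319_05742834_05745945.path1) runs over CI01000319:5742834-5745945, a span of 3112 bp. The PSMB9 locus (CI01000319_05746833_05748261.path1) follows after a gap of 887 bp at CI01000319:5746833-5748261 (1429 bp), and the PSMB12 locus (CI01000319_05750029_05750431.path1) follows after a further 1767 bp at CI01000319:5750029-5750431 (403 bp). The scaffold carries 284 listed loci, of which TAP2 is number 234 in order of position. The identifiers give no strand, exons or untranslated regions. Among protein-coding genes in the RefSeq gene table of another grass carp assembly (HZGC01), tap2a, psmb9a and psmb12 are direct neighbours. Read from higher to lower positions, they stand in this same order, with psmb13a and psmb8a, further proteasome beta subunit genes, next to psmb12. None of the 40116 identifiers could be matched to that table (0 matches), so psmb13a, psmb8a, TAP1, MHC class I, interferon genes and markers of gill or immune cells could not be looked up. The order of the named genes is the only link made between both sources.

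Expression was given as FPKM, which counts the fragments on a gene and divides them by transcript length and by the size of the library. FPKM summed over genes to between 759044 and 852270 per fish, and 28848 to 30345 genes per fish were above 0. The number of reads behind a value is unknown. The third 6‰-treated symptomatic fish stood furthest from the other fish over all genes, with a median distance of 0.48 on the log2 scale, next to 0.38 for the fish that came second, and results that rest on it are given with and without it. No sequencing batch or date is given. A value of exactly 0 is reported as listed at 0, since such a value can also arise when an expression estimate fails. How reads were placed on loci, and how reads that match several copies of a gene were assigned, is not stated. Whether a 0 of PSMB9 or PSMB12 means no expression or no reads placed on the locus was not tested, and the words on and off refer only to the listed FPKM.

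PSMB9 and PSMB12 were listed at 0 in all control fish and all 3‰-treated asymptomatic fish, and were at 11.9 to 41.2 FPKM in all 3‰-treated symptomatic and all 6‰-treated asymptomatic fish. Among the 6‰-treated symptomatic fish they were above 0 in the first and second fish and listed at 0 in the third. TAP2 was high in the same fish in which PSMB9 and PSMB12 were above 0, and was low, but mostly above 0, in the others.

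PSMB9 reached 11.9, 19.8 and 12.0 FPKM in 3‰-treated symptomatic fish and 0, 0 and 0 FPKM in 3‰-treated asymptomatic fish. It reached 15.8, 32.5 and 0 FPKM in 6‰-treated symptomatic fish and 17.8, 15.8 and 19.7 FPKM in 6‰-treated asymptomatic fish. The control fish were all listed at 0. The 8 fish above 0 thus lay between 11.9 and 32.5 FPKM, and no fish lay between 0 and 11.9 FPKM.

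PSMB12 is a proteasome beta subunit gene of fish. It reached 24.7, 40.8 and 27.2 FPKM in 3‰-treated symptomatic fish and 0, 0 and 0 FPKM in 3‰-treated asymptomatic fish. It reached 24.2, 73.0 and 0 FPKM in 6‰-treated symptomatic fish and 32.1, 34.1 and 41.2 FPKM in 6‰-treated asymptomatic fish, and was listed at 0 in the control fish. The 7 fish at 0 were the same as for PSMB9, and the lowest of the other 8 fish had 24.2 FPKM. The value of 73.0 FPKM, in the second 6‰-treated symptomatic fish, ranked 1494 among the 24647 genes in that fish.

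TAP2 reached 26.6, 21.2 and 8.20 FPKM in 3‰-treated symptomatic fish and 1.97, 3.00 and 0 FPKM in 3‰-treated asymptomatic fish. It reached 27.6, 48.1 and 1.63 FPKM in 6‰-treated symptomatic fish and 33.4, 27.3 and 34.1 FPKM in 6‰-treated asymptomatic fish. The control fish had 1.01, 1.06 and 2.28 FPKM. TAP2 differed from both proteasome genes in that 6 of the 7 low fish kept 1.01 to 3.00 FPKM, and only the third 3‰-treated asymptomatic fish was listed at 0. Its lowest high value, 8.20 FPKM in the third 3‰-treated symptomatic fish, lay closer to the low fish than any high value of PSMB9 or PSMB12. The HZGC01 table lists another TAP2 gene, tap2t, elsewhere in the genome, and how reads shared between copies were counted is not given, so whether the low TAP2 values come from this locus was not tested.

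**Figure D1:**
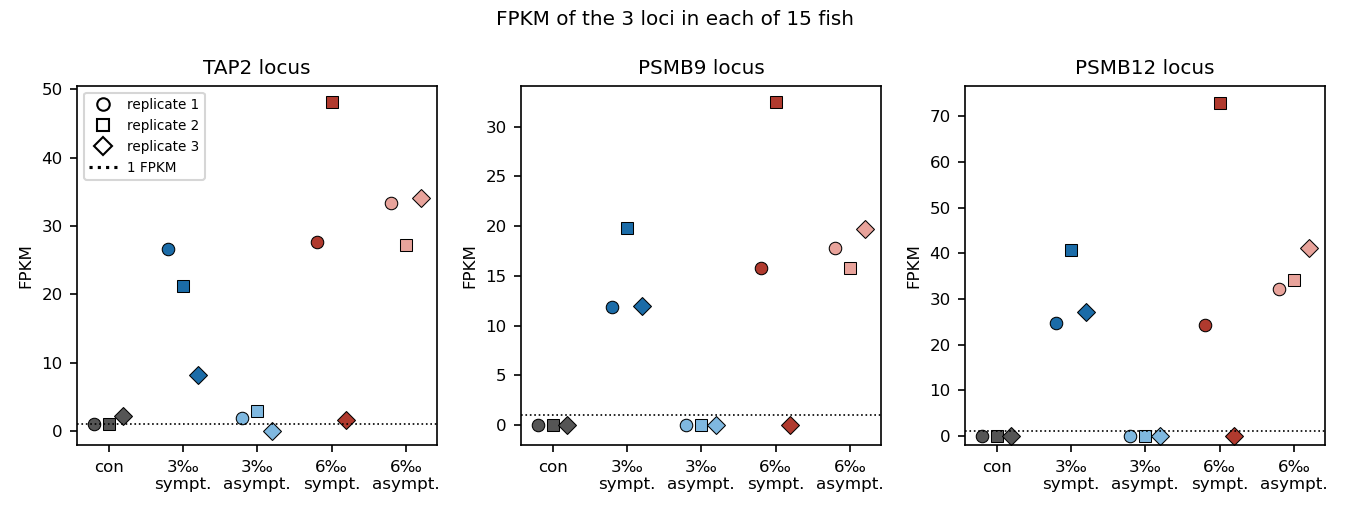
FPKM (linear axis) of TAP2, PSMB9 and PSMB12 in each of 15 fish, by group, with 1 point per fish, the shape giving the replicate number and the dotted line 1 FPKM. The control and 3‰-treated asymptomatic fish lie at 0 for PSMB9 and PSMB12 and at 3.00 FPKM or below for TAP2, as does the third 6‰-treated symptomatic fish, while the other 8 fish lie at 8.20 FPKM or above in all 3 genes.

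Counted at a threshold of 1 FPKM, TAP2 was on in 14 of 15 fish, PSMB9 in 8 and PSMB12 in 8. The value nearest to the threshold was TAP2 at 1.01 FPKM in a control fish, just inside. All values below it were listed at 0, that of TAP2 in the third 3‰-treated asymptomatic fish included. The 3 genes agreed in 9 fish at this threshold, 8 with all on and 1 with all off. The other 6 fish had TAP2 on with PSMB9 and PSMB12 off, and no fish had a proteasome gene on without TAP2. The agreement depended on where low TAP2 was placed. It was 9 fish at 0.1 and at 0.5 FPKM, 13 fish at 2 FPKM and all 15 fish at 5 FPKM, where TAP2 too was on in 8 fish. By group, all 3 genes were on in 3 of 3 3‰-treated symptomatic fish and 0 of 3 3‰-treated asymptomatic fish, in 2 of 3 6‰-treated symptomatic fish and 3 of 3 6‰-treated asymptomatic fish, and in 0 of 3 control fish.

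Across the genome, 423 loci were listed at 0 in some fish and at 10 FPKM or more in another, and the 3 genes are among them. Of the 40116 loci, 2 were listed at 0 in exactly the 7 fish in which PSMB9 was at 0 and above 0 in the other 8, and these are PSMB9 itself and PSMB12. No locus (0) showed the opposite pattern. The 7 fish are set by PSMB9, and PSMB9 and PSMB12 were singled out for this shared pattern, so the count restates the choice. In whole gill RNA, fewer cells that express a gene and less RNA per cell cannot be told apart. Whether the fish differed in the gene content of this region was not tested either.

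Among the 8 fish with all 3 genes on, levels varied by a moderate factor. The highest fish exceeded the lowest 5.86-fold for TAP2, 2.73-fold for PSMB9 and 3.02-fold for PSMB12. The second 6‰-treated symptomatic fish had the highest level of all 3 genes. FPKM is per length, so the values of different genes are set beside each other here. The transcript lengths used and the assignment of reads between copies are not given. A ratio between genes is thus one of listed FPKM and need not be one of transcript numbers. PSMB12 exceeded PSMB9 in each of the 8 fish, with an FPKM ratio of 1.53 to 2.26 and a median of 2.08. TAP2 followed less closely. Its FPKM ratio to PSMB9 was 0.682 to 2.24, with a median of 1.73, and it was above 1 in 7 of the 8 fish.

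The 3‰-treated symptomatic fish held both ends of the TAP2 to PSMB9 ratio, with 2.24, 1.07 and 0.682, while it was 1.75 and 1.48 in the first and second 6‰-treated symptomatic fish and 1.88, 1.73 and 1.73 in the 6‰-treated asymptomatic fish. The ratio of PSMB12 to PSMB9 was 2.08, 2.06 and 2.26 in the 3‰-treated symptomatic fish, 1.53 and 2.25 in the first and second 6‰-treated symptomatic fish, and 1.81, 2.16 and 2.09 in the 6‰-treated asymptomatic fish. As a description over these 8 fish, correlations were taken on log2(FPKM + 1). PSMB9 and PSMB12 varied together with Pearson's r of 0.94 (Spearman's rho 0.79). The values were 0.69 (0.60) for TAP2 and PSMB9, and 0.54 (0.50) for TAP2 and PSMB12. The points share their library totals and were taken because all 3 genes were on.

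**Figure D2:**
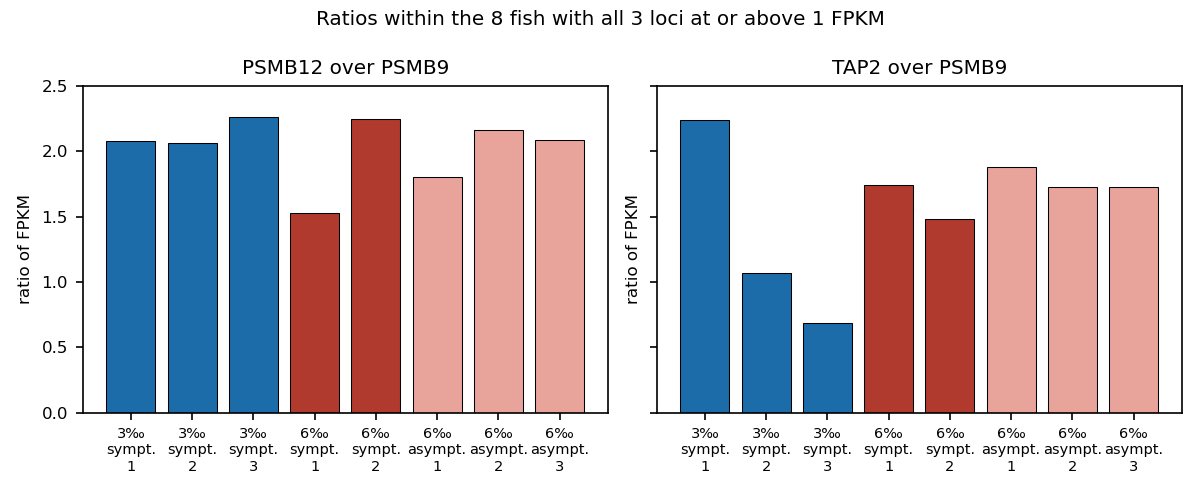
Ratios of FPKM (linear axis from 0) of PSMB12 over PSMB9 (left) and TAP2 over PSMB9 (right), 1 bar for each of the 8 fish with all 3 genes at or above 1 FPKM, labelled by group and replicate. PSMB12 over PSMB9 stays between 1.53 and 2.26, whereas TAP2 over PSMB9 spans 0.682 to 2.24, with both ends in 3‰-treated symptomatic fish.

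Against the control fish, the values of the comparisons by which the study picked the genes are as follows. TAP2 averaged 18.7 ± 9.46 FPKM in 3‰-treated symptomatic fish, 25.8 ± 23.3 FPKM in 6‰-treated symptomatic fish, 31.6 ± 3.74 FPKM in 6‰-treated asymptomatic fish and 1.45 ± 0.719 FPKM in control fish (SD, n = 3 each). On log2(FPKM + 1), which understates the change of low genes, the TAP2 difference from control was 2.90 in 3‰-treated symptomatic, 2.69 in 6‰-treated symptomatic and 3.76 in 6‰-treated asymptomatic fish (SE 0.87 each). The 3‰-treated asymptomatic fish differed from control by -0.07 in TAP2, within that SE. For PSMB9 and PSMB12 no fold is given, since every control fish was listed at 0.

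In 3‰-treated symptomatic and in 6‰-treated asymptomatic fish, all 3 genes lay above all control fish without overlap. Of all genes tested, 9.59% did so in 3‰-treated symptomatic and 18.3% in 6‰-treated asymptomatic fish. In 6‰-treated symptomatic fish none of the 3 genes did (0 of 3, beside 7.16% of all genes), because the third fish lay within the control range for each gene. In 3‰-treated asymptomatic fish none did either (0 of 3, beside 14.2% of all genes). Without the third 6‰-treated symptomatic fish, the difference from control on log2(FPKM + 1) was 3.97 for TAP2, 4.57 for PSMB9 and 5.43 for PSMB12, against 2.69, 3.05 and 3.62 with it. All 4 comparisons share the control fish.

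The comparisons among treated fish use the same on or off values by which the genes were singled out, so they too are a description. Differences and SE were taken from limma on log2(FPKM + 1), in 1 fit over the 5 groups. The SE of a gene thus pools the spread of all groups, the 6‰-treated symptomatic fish included. With only the groups compared, the SE of PSMB12 was 0.21 for 3‰-treated symptomatic minus asymptomatic fish and 0.12 for 6‰-treated minus 3‰-treated asymptomatic fish. It was 1.47 for 6‰-treated symptomatic minus asymptomatic fish and 1.48 for 6‰-treated minus 3‰-treated symptomatic fish. Where 1 group is listed at 0, the size of a difference depends on the added 1, and it is not a fold change.

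At 3‰, the 3 genes were higher in symptomatic than in asymptomatic fish. The FPKM of the fish did not overlap for any of the 3 genes, beside 7.98% of all genes that lay higher without overlap, and since the choice used these values nothing is read from that count. PSMB12 differed by 4.96 on log2(FPKM + 1) (SE 1.06), with 24.7 to 40.8 FPKM in symptomatic fish against fish all listed at 0. PSMB9 differed by 3.92 (SE 0.89). TAP2, the peptide transporter subunit, differed by 2.96 (SE 0.87), with at least 8.20 FPKM in symptomatic and at most 3.00 FPKM in asymptomatic fish. The median difference was 3.92 over the 3 genes and -0.07 over all genes tested.

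At 6‰, the symptomatic and asymptomatic fish overlapped in all 3 genes (0 of 3 without overlap, beside 10.2% of all genes that lay lower without overlap). The difference on log2(FPKM + 1) was -1.07 for TAP2 (SE 0.87), -1.18 for PSMB9 (SE 0.89) and -1.57 for PSMB12 (SE 1.06). The symptomatic fish held the highest value of all 15 fish as well as a fish with PSMB9 and PSMB12 at 0. The sign rested on the third symptomatic fish. Without it the differences were 0.21 for TAP2, 0.34 for PSMB9 and 0.24 for PSMB12. Without the second symptomatic fish they were -1.90, -2.19 and -2.87.

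Among asymptomatic fish, the 3 genes were higher at 6‰ than at 3‰. There was no overlap between the fish in any of the 3, beside 10.8% of all genes that lay higher without overlap, a count that again restates the choice. PSMB12 differed by 5.19 on log2(FPKM + 1) (SE 1.06), with 32.1 to 41.2 FPKM at 6‰ and 0 in each fish at 3‰. PSMB9 differed by 4.22 (SE 0.89). TAP2 differed by 3.83 (SE 0.87), with 27.3 to 34.1 FPKM at 6‰ and 0 to 3.00 FPKM at 3‰. The median difference was 4.22 over the 3 genes and -0.01 over all genes tested.

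Among symptomatic fish, the groups at 6‰ and 3‰ overlapped in all 3 genes (0 of 3 without overlap, beside 3.04% of all genes that lay lower without overlap). TAP2 differed by -0.20 on log2(FPKM + 1) (SE 0.87), PSMB9 by -0.88 (SE 0.89) and PSMB12 by -1.34 (SE 1.06). The direction depended on single fish. Without the third 6‰-treated symptomatic fish the differences were 1.07 for TAP2, 0.65 for PSMB9 and 0.47 for PSMB12, and without the second they were -1.04, -1.89 and -2.63. Without the first 3‰-treated symptomatic fish the TAP2 difference was 0.11.

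**Figure D3:**
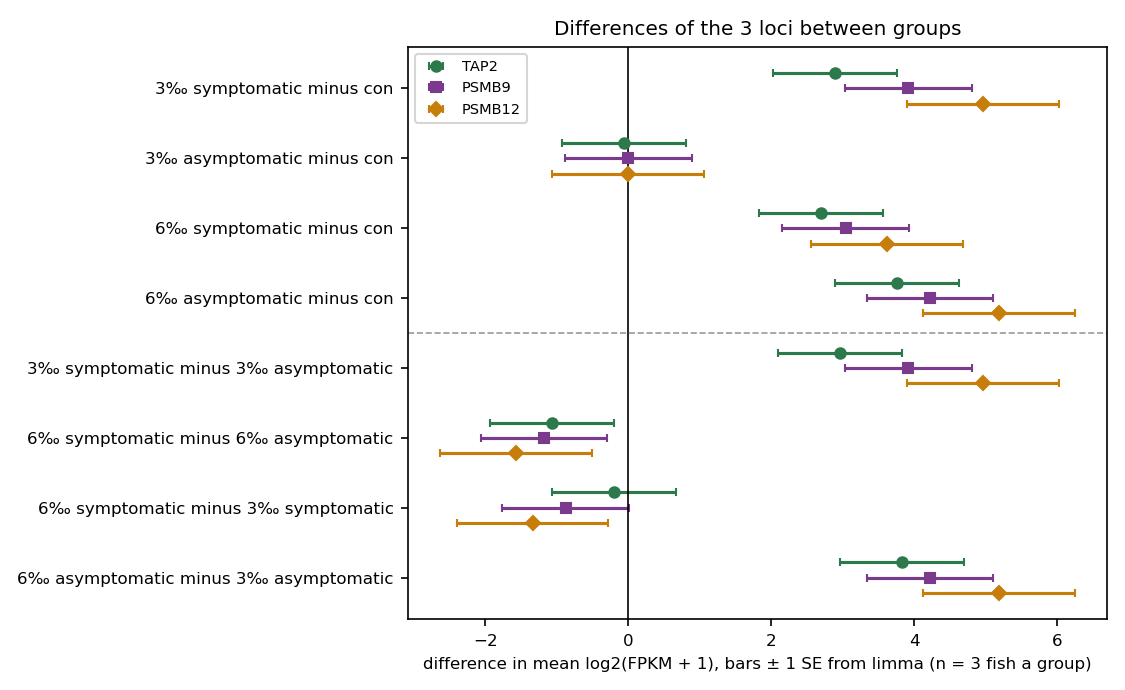
Difference in mean log2(FPKM + 1) between groups for TAP2, PSMB9 and PSMB12, with bars of 1 SE on either side from the limma fit (3 fish a group), against control fish above the dashed line and among treated fish below it. The differences of 3‰-treated symptomatic from 3‰-treated asymptomatic fish (2.96 to 4.96) and of 6‰-treated from 3‰-treated asymptomatic fish (3.83 to 5.19) lie right of 0, and those within 6‰ and within symptomatic fish lie at or left of 0.

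Ordered by the median FPKM of the fish, TAP2 was highest in 6‰-treated asymptomatic fish (33.4), followed by 6‰-treated symptomatic (27.6), 3‰-treated symptomatic (21.2), 3‰-treated asymptomatic (1.97) and control fish (1.06). PSMB9 kept this order with 17.8, 15.8 and 12.0 FPKM, followed by 0 in 3‰-treated asymptomatic and control fish. For PSMB12 the medians were 34.1 FPKM in 6‰-treated asymptomatic, 24.2 in 6‰-treated symptomatic and 27.2 in 3‰-treated symptomatic fish, so the last pair stood in the other order. With the third fish included, the TAP2 range of 6‰-treated symptomatic fish overlapped that of every other group. Neither neighbour of this group in the order thus differed from it beyond the spread. The place of the group rested on that fish. Its first and second fish had 27.6 and 48.1 FPKM in TAP2, 15.8 and 32.5 in PSMB9, and 24.2 and 73.0 in PSMB12. In TAP2 both lay above every 3‰-treated and control fish. Without the third fish, the mean log2(FPKM + 1) of the group lay above that of 6‰-treated asymptomatic fish in each gene.

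The neighbouring loci on the scaffold did not follow the same pattern, apart from the nearest locus after the genes. The 3 loci before TAP2, the nearest of them 8549 bp away, were above 0 in all 15 fish, with 12.7 to 1130 FPKM in the nearest. The locus before that, CI01000319_05715222_05717473, had 23.5 to 27.6 FPKM in control fish and 5.87 to 15.9 FPKM in all 3‰-treated symptomatic and 6‰-treated fish. It was thus low in the fish with the 3 genes high. It was also low, at 13.7 FPKM, in the third 6‰-treated symptomatic fish. The 3‰-treated asymptomatic fish had 14.2, 26.0 and 37.3 FPKM. The nearest locus after PSMB12, CI01000319_05777222_05780221 at a distance of 26790 bp, had 2.61, 2.66 and 8.83 FPKM in 3‰-treated symptomatic fish and 0, 2.15 and 0 FPKM in 3‰-treated asymptomatic fish. It had 5.51, 5.45 and 0.587 FPKM in 6‰-treated symptomatic fish, 10.4, 6.25 and 2.88 FPKM in 6‰-treated asymptomatic fish, and 0.604, 0 and 0.235 FPKM in control fish. It was thus highest in the same 8 fish as the 3 genes, at lower levels and with 2.15 FPKM in a 3‰-treated asymptomatic fish in which PSMB9 and PSMB12 were listed at 0.

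The next loci were present in most fish. The locus CI01000319_05796587_05803719, 46155 bp beyond PSMB12, had 4.83 to 18.2 FPKM in 14 fish. It was listed at 0 in the third 3‰-treated asymptomatic fish, which is also the only fish with TAP2 at 0. The locus after it, CI01000319_05804236_05806955 at 53804 bp, was likewise listed at 0 in that fish. It had 7.12 FPKM in the second 6‰-treated symptomatic fish, the fish with the highest TAP2, PSMB9 and PSMB12, and 29.9 to 96.4 FPKM in the other 13 fish. No names are given to these loci in the sources used here.

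**Figure D4:**
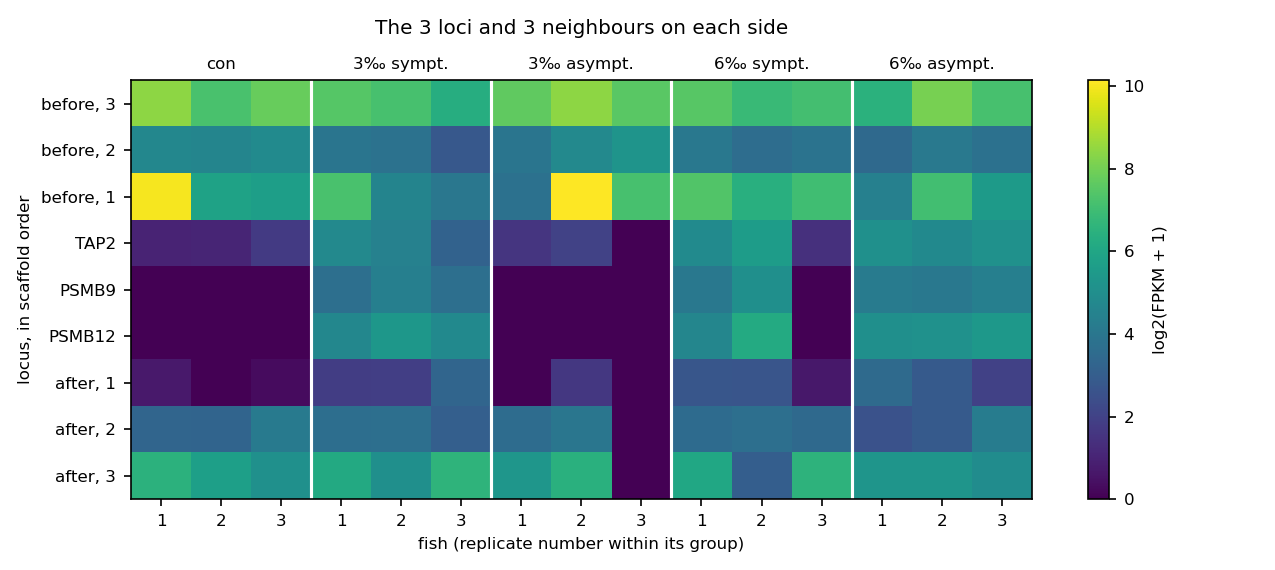
Colour map of log2(FPKM + 1) for TAP2, PSMB9 and PSMB12 and the 3 nearest listed loci on either side (rows, in scaffold order, numbered outwards from the genes) in 15 fish (columns, by group and replicate). The dark cells of PSMB9 and PSMB12 stand in the same 7 fish, while the 3 loci before TAP2 are above 0 in every fish and both loci beyond the nearest one after PSMB12 are at 0 only in the third 3‰-treated asymptomatic fish.

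The 10 other loci whose log2(FPKM + 1) was most like the mean of the 3 genes over the 15 fish had a Pearson's r of 0.84 to 0.90, given as a measure of likeness only. The first was CI01000399_00034502_00034954 (r 0.90), with 0 to 15.4 FPKM. The second, CI01000009_02228671_02232977 (r 0.88), was above 0 in every fish at 39.3 to 71.3 FPKM, so a high likeness did not require a pattern of presence and absence. Of the 10 loci, 1 lay on the scaffold of the genes, which was the nearest locus after PSMB12 (r 0.87), 4 carried a newGene number in place of a position, and 5 were listed at 0 in at least 1 fish. None of them had the 0 values of PSMB9 and PSMB12 in the same 7 fish.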

How the data were processed

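Gill RNA of 15 fish was sequenced, 3 in each of 5 groups taken from the sample labels. The authors deposited FPKM values for 40116 genes per fish. The labels describe a NEBNext library protocol and the study's methods TruSeq libraries with a Trinity assembly, while most identifiers are genome loci. No source used here names the aligner, the genome build or the counting method (not given in the sources used here). A line of annotation text in each file (1 per file) was dropped. No common step of 1 read was found among low values, so the depth behind a value is unknown, no counting interval is given and no count test was run.

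Differences in log2(FPKM + 1) were estimated by limma (version 3.58.1, R 4.3.3) over genes with a mean of at least 0.5 FPKM (10 residual and 2.64 prior degrees of freedom), with group as the only term. Tests planned for the comparisons among treated fish are not reported, since the choice of the genes used the values of all groups. Alternatives for the comparisons among treated fish were read against the study's threshold (fold change of at least 1.5, p below 0.05), whose test is not stated. Tables and plots were made with Python 3.11.15, pandas 2.3.3 and matplotlib 3.10.9. The test was tried on simulated data. SE, and the p-values used to label the alternatives, rest only on the spread between these fish. In limma the spread of a gene is drawn towards that of all genes tested, so an SE is not that gene's spread alone.

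The genes, lists and tests were chosen with earlier results of these data known. The loci named are the 3 genes, the 3 nearest on either side, and the 10 with the highest Pearson's r with the mean of the 3 genes. The on threshold was 1 FPKM. Alternatives were other on thresholds, a pseudocount of 0.1 or 0.01, no filter or a mean of at least 1 FPKM, median-ratio scaling, quantile normalization, only the groups compared, the replicate number as a block, and leaving out each fish. A comparison of the symptom difference between salinities, and naming the library furthest from the others, were added after seeing the data. No sequence is shown, since none of the sequence tables or genome files were used here. Infected fish were not analysed here.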

Additional observations from a re-analysis of the deposited data

Results flagged for a closer look

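The difference between symptomatic and asymptomatic fish was compared between both salinities for TAP2, PSMB9 and PSMB12, as a description with no test. This comparison was added after seeing the data, on genes chosen by their on or off values in these same fish, so it is no independent evidence of a difference. At 6‰ minus 3‰, the symptomatic minus asymptomatic difference on log2(FPKM + 1) was -4.03 for TAP2, -5.10 for PSMB9 and -6.53 for PSMB12. No interval, p-value or count of genes past a threshold is given, since the choice of the genes used these same values. At 3‰, all 3 symptomatic fish lay above all 3 asymptomatic fish in each gene, while at 6‰ the 2 groups overlapped. Without the third 6‰-treated symptomatic fish the values were -2.76, -3.58 and -4.72. Since the 3‰-treated asymptomatic fish were listed at 0 in PSMB9 and PSMB12, the sizes for these genes depend on the added 1.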

How the results depend on the processing

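Of 409 values recomputed under alternatives, 379 kept their direction and their side of the threshold or moved by less than the spread, 7 reversed, 5 passed the threshold of the call newly in the same direction, all without the second 6‰-treated symptomatic fish, and 18 moved. Without the third 6‰-treated symptomatic fish, the 6‰-treated symptomatic minus asymptomatic difference on log2(FPKM + 1) was 0.21 for TAP2, 0.34 for PSMB9 and 0.24 for PSMB12, and that of 6‰-treated minus 3‰-treated symptomatic fish was 1.07, 0.65 and 0.47. Of these reversed values, that of PSMB9 (0.65) also passed the threshold. The threshold served only to label the alternatives. Since the genes were chosen by these same values, passing it is no evidence of a difference. Without the first 3‰-treated symptomatic fish, this last difference of TAP2 was 0.11. Leaving out each fish in turn, the 6‰-treated symptomatic minus asymptomatic difference ran over -1.90 to 0.21 for TAP2, -2.19 to 0.34 for PSMB9 and -2.87 to 0.24 for PSMB12. The difference of 6‰-treated from 3‰-treated symptomatic fish ran over -1.04 to 1.07, -1.89 to 0.65 and -2.63 to 0.47, and that of 6‰-treated symptomatic from control fish over 1.86 to 3.97, 2.04 to 4.57 and 2.33 to 5.43. For 3‰-treated symptomatic minus asymptomatic fish it ran over 2.37 to 3.44, 3.69 to 4.04 and 4.75 to 5.10, and for 6‰-treated minus 3‰-treated asymptomatic fish over 3.24 to 4.24, 4.15 to 4.30 and 5.09 to 5.27. The symptom difference at 6‰ minus that at 3‰ ran over -4.87 to -2.76, -6.11 to -3.58 and -7.83 to -4.72.

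The size of a difference from fish at 0 is set by the added value. With a pseudocount of 0.1, PSMB12 differed from control by 8.24 in 3‰-treated symptomatic, 5.81 in 6‰-treated symptomatic and 8.48 in 6‰-treated asymptomatic fish, and PSMB9 by 7.15, 5.22 and 7.48. With 0.01 these were 11.56, 8.03 and 11.80 for PSMB12 and 10.47, 7.43 and 10.79 for PSMB9, and TAP2 in 3‰-treated asymptomatic fish differed from control by -1.80. At an on threshold of 5 FPKM, TAP2 was on in 8 fish and the 3 genes agreed in 15.

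The replicate numbers did not pair the fish in general, though a link between single fish is not excluded. Over 30 pairs of fish with the same number, deviations from the group means correlated by -0.47 to 0.54 (median -0.01, 10 pairs above 0.1). The median was 0.02 for fish with different numbers. The closest of all 105 pairs over all genes was the first 3‰-treated symptomatic and the first 6‰-treated symptomatic fish. Their median distance was 0.14 on the log2 scale, against 0.18 for the next pair, and why was not tested. Since each group holds every replicate number once, taking the number as a block cannot change an estimate. PSMB12 in 3‰-treated symptomatic against asymptomatic fish thus stayed at 4.96, which says nothing on pairing. The SE and p-values could change, and no value of the 3 genes changed its side of that threshold. The number of reads behind a value is unknown, so what depth limits could not be worked out.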
